A study of Mus musculus with 14 samples.

Results

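The 10 genes described here move acid, bicarbonate and ammonia in the kidney tubule. They are *Foxi1*, *Atp6v1b1*, *Atp6v0d2*, *Slc4a1*, *Slc26a4*, *Rhcg*, *Car2*, *Car4*, *Slc4a4*, and *Slc9a3*, and they were taken by gene symbol from the 21878 genes listed for each mouse. All 10 were found, and all 10 passed the filter on low values, as did 14912 genes in all.

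Kidney RNA of 14 male C57BL/6J mice was sequenced to ask what loss of *Cfb*, which encodes complement factor B of the alternative pathway, changes in diabetic kidneys. The 4 *Cfb*-/- diabetic mice and 4 WT diabetic mice were fed HFD, whose fat supplied 60% of the energy, for 4 weeks before 5 days of STZ at 60 mg/kg. The 3 *Cfb*-/- control mice and 3 WT control mice were given citrate buffer in place of STZ and a chow whose fat supplied 10% of the energy. The labels give 34 weeks for every mouse. The starting age and the intervals in the study's methods add up to this as the age at sampling. The labels call the deletion a knockdown in the genotype field and a knockout elsewhere. They also give control mice the treatment text of diabetic mice, although their diet and disease fields name chow and healthy controls. The sources describe no deletion limited to a cell type. STZ and HFD were given together, so their effects cannot be told apart. RNA came from whole kidney, in which fewer cells of a type and less RNA per cell cannot be told apart.

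Intercalated cells of the collecting duct and connecting tubule secrete acid or base. The type A cell pumps protons into the urine with a vacuolar proton pump and returns bicarbonate to the blood through AE1, the product of *Slc4a1*, whereas the type B cell secretes bicarbonate through pendrin, the product of *Slc26a4*. Both depend on the forkhead factor FOXI1. Upstream, the proximal tubule reclaims most of the filtered bicarbonate through the sodium-proton exchanger NHE3 (*Slc9a3*), the membrane-bound carbonic anhydrase IV (*Car4*), and the basolateral sodium-bicarbonate cotransporter NBCe1 (*Slc4a4*), and cytosolic carbonic anhydrase II (*Car2*) serves both segments.

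*Foxi1* and the genes *Atp6v1b1* and *Rhcg* moved together from mouse to mouse, as shown further on. The 250 bases before the start of each are printed. *Slc26a4* and *Atp6v0d2* moved with them too, but their promoters are not printed. The start of the *Slc26a4* promoter differs from that of the gene position given below, and no promoter was given for *Atp6v0d2*. The sequences are from RefSeq, build GRCm38.p6, 5′ to 3′ on the strand of the gene. Their places are chr6:83742767-83743016 on the plus strand for *Atp6v1b1*, chr11:34208090-34208339 on the minus strand for *Foxi1*, and chr7:79617658-79617907 on the minus strand for *Rhcg*. Capitals mark the letters TGTTTA, a forkhead core, which were searched on both strands.
Atp6v1b1: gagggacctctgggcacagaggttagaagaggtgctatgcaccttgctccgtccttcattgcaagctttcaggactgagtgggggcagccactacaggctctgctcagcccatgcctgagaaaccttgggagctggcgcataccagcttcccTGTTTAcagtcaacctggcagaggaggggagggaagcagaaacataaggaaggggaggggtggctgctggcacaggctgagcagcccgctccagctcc
Foxi1: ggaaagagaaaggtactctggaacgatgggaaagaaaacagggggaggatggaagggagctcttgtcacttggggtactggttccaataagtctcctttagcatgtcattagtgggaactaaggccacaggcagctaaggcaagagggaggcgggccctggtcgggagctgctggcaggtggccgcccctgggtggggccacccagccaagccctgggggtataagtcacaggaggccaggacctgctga
Rhcg: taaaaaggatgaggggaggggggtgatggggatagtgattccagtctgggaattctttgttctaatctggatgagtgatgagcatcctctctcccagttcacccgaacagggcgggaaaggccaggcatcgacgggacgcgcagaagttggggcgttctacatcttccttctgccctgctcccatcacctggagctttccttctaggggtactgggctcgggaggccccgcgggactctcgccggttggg
Promoters were given for 7 of the 10 genes, 8 promoters in all, of 300 bases including 50 after the start. The letters were found in 1 of these 8, that of *Atp6v1b1*, with the first base at -98 from the start. Of all 32851 promoters of this length, 13.4% held them.

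The expression values are FPKM, in which fragments are adjusted for transcript length and library size, so that levels can be compared between genes. The sum over genes ranged from 330245.9 to 364952.8 in diabetic and from 372883.8 to 488196.0 in control mice, and the number of reads is unknown. The gene with the highest value made up 2.49% to 4.60% of the sum in diabetic and 10.2% to 13.9% in control mice. Each diabetic mouse thus had a lower sum than each control mouse, and the shares of genes called higher and lower are on this scale. *Cfb* itself ranged over 1.13 to 1.43 FPKM in the diabetic and 2.05 to 2.22 FPKM in the control mice that lacked it, against 56.7 to 81.9 FPKM and 62.2 to 131 FPKM in the WT mice. All 8 proximal tubule markers were above 0 in every mouse. Of them, 5 were lower in WT diabetic than in WT control mice and 6 in the *Cfb*-/- comparison, and their summed level was 2073 to 3393 FPKM in diabetic and 5376 to 7581 FPKM in control mice. All 5 genes of injured tubule were higher in diabetic mice of both genotypes. Of all tested genes, 36.2% were higher and 9.97% lower in WT diabetic mice, and 27.4% and 6.4% in *Cfb*-/- diabetic mice. Urothelial genes stood apart in 3 WT diabetic mice, with summed levels of 34.2, 45.7, and 14.7 FPKM in mice 2, 3, and 4, against 0.690 FPKM in mouse 1 and at most 8.77 FPKM in all other mice. No genes of these lists passed the test for *Cfb* deletion.

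Diabetic and control mice were compared within each genotype with limma on log2(FPKM + 0.1), and a gene was called at a Benjamini-Hochberg adjusted p under 0.05. In WT mice, *Slc4a1* and *Car2* rose and *Car4* and *Slc26a4* fell, 4 of 10 genes against 46.1% of all tested genes (36.2% that rose and 9.97% that fell). With *Cfb* deleted, *Atp6v0d2* rose and *Car4* fell, 2 of 10 genes against 33.8% of all tested genes (27.4% that rose and 6.4% that fell). Neither count exceeded the share among all genes. *Car4* was the 1 member called in both genotypes. It was also the 1 that met the study's criteria of a fold change over 2 or under 0.5 with an unadjusted P under 0.05. The study used these cut-offs with DESeq2, a count test, and here they were applied to limma on log2(FPKM + 0.1). In this form 17.5% of genes met them in WT and 14.9% in *Cfb*-/- mice (1.82% and 1.66% with a lower value in diabetic mice, 15.6% and 13.3% with a higher one). The median gene was itself 0.29 (log2) higher in WT diabetic than in WT control mice and 0.22 higher in the *Cfb*-/- comparison, and the median of the 10 members was -0.04 and 0.16.

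**Figure D1:**
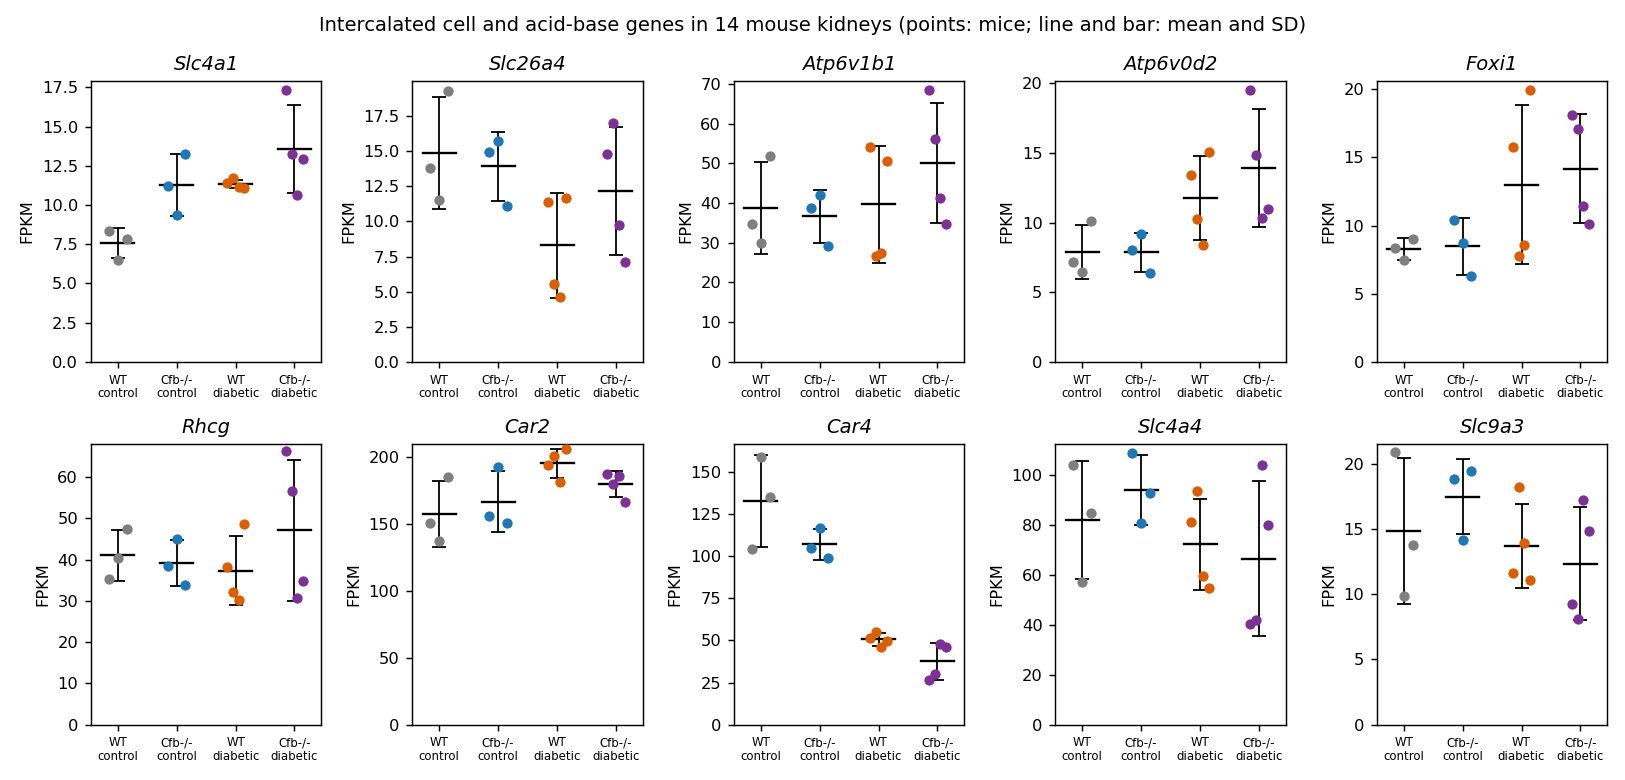
FPKM of the 10 genes in each of 14 mice, by group, with points for mice and lines and bars for the mean and SD of 3 control or 4 diabetic mice. *Car4* in diabetic mice lay at 26.4 to 55.0 FPKM, under all control mice at 99.3 to 159 FPKM, whereas the groups of most other genes overlapped.

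The genes differed widely in level. Over the 14 mice, the mean was 176 FPKM for *Car2*, 77.3 FPKM for *Slc4a4*, and 76.6 FPKM for *Car4*. *Atp6v1b1* and *Rhcg* followed at 41.8 and 41.3 FPKM. The other 5 genes averaged between 10.7 FPKM for *Atp6v0d2* and 14.4 FPKM for *Slc9a3*, and their ranges over the mice overlapped. With all groups pooled, the ratio of the highest to the lowest mouse was 1.51 for *Car2* and 6.02 for *Car4*, the lowest and the highest of the 10, and for *Car4* it spans the difference between diabetic and control mice. Within WT diabetic mice the coefficient of variation was 7.16% for *Car4* and 45.1% for *Slc26a4*.

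*Foxi1* (11:34204341-34208089) encodes the factor that intercalated cells need. It was at 8.32, 7.49, and 9.04 FPKM in WT control mice and at 15.7, 7.74, 8.59, and 19.9 FPKM in WT diabetic mice. Values in *Cfb*-/- mice were 10.4, 8.70, and 6.28 FPKM in controls and 18.1, 17.1, 11.4, and 10.1 FPKM in diabetic mice. Diabetic mice 1 and 4 of the WT group and 1 and 2 of the *Cfb*-/- group were high, and the groups overlapped in both genotypes. The log2 difference of 0.54 (SE 0.30) in WT mice and of 0.72 (SE 0.30) in *Cfb*-/- mice did not pass, at limma adjusted p of 0.158 and 0.0804. The second passed at 0.0481 when the 2 groups were fitted alone, at 0.0484 without *Cfb*-/- diabetic mouse 4, and at 0.0480 without WT diabetic mouse 4 (adjusted p from limma).

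*Atp6v1b1* (6:83743017-83758855) encodes the B1 subunit of the cytosolic part of the proton pump, the form found in intercalated cells. WT control mice had 34.6, 29.9, and 51.9 FPKM, and WT diabetic mice had 54.1, 26.6, 27.3, and 50.5 FPKM. Levels were 38.8, 42.0, and 29.1 FPKM in *Cfb*-/- control mice and 68.5, 56.0, 41.3, and 34.8 FPKM in *Cfb*-/- diabetic mice. WT diabetic mice fell into a high pair and a low pair around the controls, and the groups overlapped in both genotypes. The log2 difference was -0.01 (SE 0.29) in WT and 0.42 (SE 0.29) in *Cfb*-/- mice at limma adjusted p of 0.986 and 0.290.

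*Atp6v0d2* (4:19876838-19922566) encodes the d2 subunit of the membrane part of the pump, again the form enriched in intercalated cells. It was at 7.14, 6.45, and 10.1 FPKM in WT control mice and at 13.4, 10.3, 8.40, and 15.1 FPKM in WT diabetic mice. The *Cfb*-/- controls had 8.03, 9.17, and 6.39 FPKM, and diabetic mice 19.5, 14.8, 10.3, and 11.0 FPKM. Each *Cfb*-/- diabetic mouse was above each *Cfb*-/- control mouse, which held for 33.6% of all genes, whereas WT mice overlapped through diabetic mouse 3. The *Cfb*-/- mean ± SD was 7.86 ± 1.40 FPKM (n = 3) in control and 13.9 ± 4.21 FPKM (n = 4) in diabetic mice. It rose in *Cfb*-/- diabetic mice by 0.78 (SE 0.24; log2), or 1.72-fold, at a limma adjusted p of 0.0219. The call was lost without *Cfb*-/- diabetic mouse 1 or 2 or *Cfb*-/- control mouse 1 or 3, at limma adjusted p of 0.0712, 0.0552, 0.0502, and 0.0922. It was also lost after median-ratio scaling (0.54, limma adjusted p of 0.0740) and quantile normalization (0.62, limma adjusted p of 0.0683). In WT mice the difference was 0.56 (SE 0.24) at a limma adjusted p of 0.0697, and it passed without *Cfb*-/- diabetic mouse 1, WT diabetic mouse 3, or WT control mouse 3, at adjusted p of 0.0489, 0.0327, and 0.0369.

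On the values as deposited, other pump subunits were mostly not called. Of the 5 subunits with an intercalated cell form, 0 were called in WT and 1, *Atp6v0d2*, in *Cfb*-/- mice. The other 3 besides the members, *Atp6v0a4*, *Atp6v1g3*, and *Atp6v1c2*, differed by 0.25, -0.19, and -0.08 (log2) in WT and by 0.22, 0.38, and 0.28 in *Cfb*-/- mice. Under median-ratio scaling *Atp6v0a4* turned to -0.03 and -0.02, and under quantile normalization *Atp6v1c2* in *Cfb*-/- mice turned to -0.08. Of the 17 subunits used by every cell, 2 rose and 4 fell in WT, and 1 rose and 1 fell in *Cfb*-/- mice. Those called in both were *Atp6v1b2*, the widespread partner of *Atp6v1b1*, at -0.41 and -0.42, and *Atp6v0a1* at 0.40 and 0.51. Both *Atp6v1b2* calls were lost after quantile normalization (-0.20 and -0.30, limma adjusted p of 0.304 and 0.148) and in several analyses with a mouse left out, and the WT call of *Atp6v0a1* was lost after median-ratio scaling (0.12, limma adjusted p of 0.305). The WT split was 0 higher and 10 lower after median-ratio scaling and 4 higher and 1 lower after quantile normalization.

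*Slc4a1* (11:102348820-102365281) encodes AE1, the basolateral chloride-bicarbonate exchanger of the type A cell. It was at 8.34, 6.49, and 7.86 FPKM in WT control mice and at 11.4, 11.7, 11.2, and 11.1 FPKM in WT diabetic mice. Among *Cfb*-/- mice, controls had 11.2, 9.33, and 13.3 FPKM and diabetic mice 17.4, 13.3, 10.6, and 12.9 FPKM. The 3 WT control mice lay below each of the other 11 mice, while the *Cfb*-/- groups overlapped. Of all genes, 35.5% had each WT diabetic mouse above each WT control mouse. The WT mean ± SD was 7.56 ± 0.959 FPKM (n = 3) in control and 11.3 ± 0.277 FPKM (n = 4) in diabetic mice. *Slc4a1* rose in WT diabetic mice by 0.59 (SE 0.15; log2) at a limma adjusted p of 0.00716 and an exact permutation p of 0.0571, the smallest that 4 mice against 3 allow. After median-ratio scaling the difference was 0.31 at a limma adjusted p of 0.0596. Under *Cfb* deletion the difference was 0.26 (SE 0.15) at a limma adjusted p of 0.216.

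Red blood cells also make AE1 and carbonic anhydrase II. All 6 tested red blood cell markers had negative differences in both genotypes, with 2 lower in WT and 5 lower in *Cfb*-/- diabetic mice. Their summed level was 562 to 880.1 FPKM in WT control, 160 to 780.0 FPKM in WT diabetic, 304 to 556 FPKM in *Cfb*-/- control, and 127 to 306 FPKM in *Cfb*-/- diabetic mice. WT diabetic mouse 4 alone gave the 780.0 FPKM, and the other 3 lay at 229 FPKM or less with *Slc4a1* at 11.2 to 11.7 FPKM. The part of red blood cells in the *Slc4a1* and *Car2* values was not tested.

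*Slc26a4* (12:31519814-31560055) encodes pendrin, the apical anion exchanger of the type B cell. It was at 13.8, 11.5, and 19.3 FPKM in WT control mice and at 11.4, 5.55, 4.60, and 11.7 FPKM in WT diabetic mice. Values in *Cfb*-/- mice were 14.9, 15.7, and 11.1 FPKM in controls and 14.8, 17.0, 9.75, and 7.14 FPKM in diabetic mice. WT diabetic mice 2 and 3 were the lowest of all 14, and the WT groups met where diabetic mouse 4 stood just above control mouse 2. The WT mean ± SD was 14.8 ± 3.98 FPKM (n = 3) in control and 8.30 ± 3.74 FPKM (n = 4) in diabetic mice. *Slc26a4* fell by 0.92 (SE 0.35) on the log2 scale in WT diabetic mice at a limma adjusted p of 0.0422. The call was lost in 9 of 22 alternatives, among them the 2 groups fitted alone (0.0544) and the analysis without WT diabetic mouse 2 (0.105), WT diabetic mouse 3 (0.117), *Cfb*-/- control mouse 1 (0.0516), or WT control mouse 1, 2, or 3 (0.0646, 0.0539, and 0.153), all adjusted p from limma. The urothelial genes were highest in WT diabetic mice 2 and 3, and their part in the low *Slc26a4* values was not tested. The *Cfb*-/- groups differed by -0.26 (SE 0.35) at a limma adjusted p of 0.596.

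Other genes of the same cells were then counted. Of 7 type A genes, *Slc4a1* included, 6 rose with diabetes in WT and 3 in *Cfb*-/- mice. Of all tested genes, 36.2% rose in WT and 27.4% in *Cfb*-/- mice, while 9.97% and 6.4% fell. All list counts given here are to be read beside these shares. The median log2 difference of the type A list was 1.33 and 0.97 against 0.29 and 0.22 over all genes. Those called in both were *Aqp6*, an anion-conducting aquaporin of acid vesicles (1.46 and 0.98), *Dmrt2*, a transcription factor of type A cells (1.51 and 1.53), and *Adgrf5*, a receptor that endothelium also makes (1.33 and 0.99). *Aqp6* was at 10.2 to 11.4 FPKM in WT control and 22.4 to 33.8 FPKM in WT diabetic mice. After median-ratio scaling 5 and 3 of the 7 were called, and after quantile normalization 4 and 3.

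The 4 type B genes had negative differences in WT mice, and 2 of them were called. *Insrr*, an alkali-sensing receptor, fell by 1.09 (SE 0.43) on the log2 scale at a limma adjusted p of 0.0495, whereas *Slc4a9*, the exchanger AE4, and *Hmx2*, a homeobox factor, differed by -0.56 and -0.57. The *Insrr* call was lost in 13 alternatives. With *Cfb* deleted, 0 of 4 were called, with *Insrr* at -0.33, *Hmx2* at -0.41, and *Slc4a9* at 0.08, which turned to -0.16 and -0.03 after median-ratio scaling and quantile normalization. Among 4 transcription factors of intercalated cells, *Dmrt2* was called in both genotypes and *Tfcp2l1*, which collecting duct cells need, rose in WT by 0.72 at a limma adjusted p of 0.0352 that became 0.119 after median-ratio scaling and 0.233 without WT control mouse 2.

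The ratio of *Slc26a4* to *Slc4a1* within a mouse does not depend on the library total. It was 1.65, 1.77, and 2.45 in WT control mice and 0.997, 0.474, 0.412, and 1.05 in WT diabetic mice, so that each control mouse was above each diabetic mouse. Both genes had been called in WT mice, in opposite directions, so this separation follows from those differences and is no further support for them. In *Cfb*-/- mice the ratio was 1.33, 1.69, and 0.838 in controls and 0.852, 1.28, 0.917, and 0.553 in diabetic mice, which overlapped. The ratio of *Atp6v0d2* to its widespread partner *Atp6v0d1* was 0.0708 to 0.108 in WT control and 0.115 to 0.223 in WT diabetic mice, and 0.0931 to 0.125 in *Cfb*-/- control and 0.145 to 0.262 in *Cfb*-/- diabetic mice. Within each genotype the diabetic mice were thus above the controls on this ratio, by little in WT mice. *Atp6v0d2* itself overlapped in WT mice. There *Atp6v0d1* was lower in each diabetic mouse, at 67.6 to 77.2 FPKM against 77.5 to 93.4 FPKM in controls. In *Cfb*-/- mice *Atp6v0d2* alone already separated the groups, so the ratio is no further support for its rise. For *Atp6v1b1* against *Atp6v1b2*, the ratio was 0.218 to 0.358 in WT control and 0.222 to 0.521 in WT diabetic mice, which overlapped. No test was made of these ratios.

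**Figure D2:**
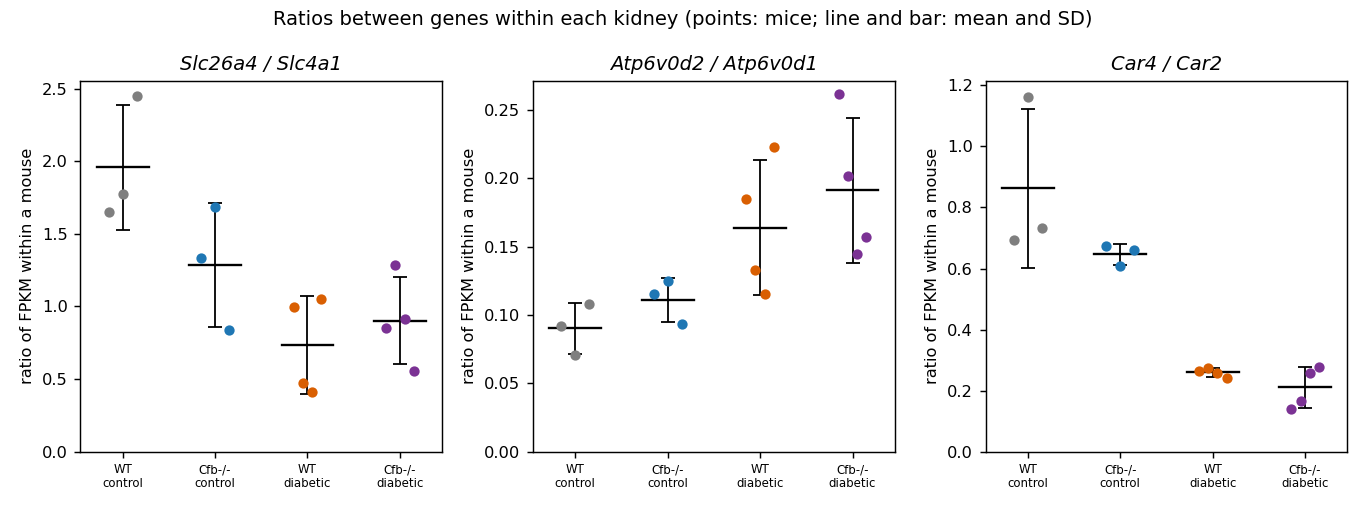
Ratio of FPKM between 2 genes within each mouse, for 3 gene pairs, with points for mice and lines and bars for the mean and SD of 3 control or 4 diabetic mice. The ratio of *Slc26a4* to *Slc4a1* was at least 1.65 in WT control mice and at most 1.05 in WT diabetic mice.

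*Rhcg* (7:79593363-79617657) encodes an ammonia channel of the collecting duct. It was at 35.2, 40.5, and 47.4 FPKM in WT control mice and at 38.2, 32.1, 30.2, and 48.7 FPKM in WT diabetic mice. The *Cfb*-/- controls had 38.5, 45.1, and 33.9 FPKM, and diabetic mice 66.2, 56.7, 30.7, and 34.9 FPKM. *Cfb*-/- diabetic mice 1 and 2 were the highest of all 14, and mouse 3 lay below all controls. The log2 difference was -0.15 (SE 0.24) in WT and 0.20 (SE 0.24) in *Cfb*-/- mice, which turned to -0.04 after median-ratio scaling in *Cfb*-/- mice. Neither passed, at limma adjusted p of 0.623 and 0.543.

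Of 10 genes of ammonia production and transport, 2 rose and 2 fell in WT, and 1 rose and 1 fell in *Cfb*-/- mice. Called in both were *Slc38a3*, the glutamine transporter of the proximal tubule, at 2.80 and 1.52, and *Slc6a19*, an apical transporter of neutral amino acids, at -1.82 and -1.59. *Slc38a3* was at 1.28 to 11.3 FPKM in WT control and 30.1 to 45.2 FPKM in WT diabetic mice, and its call in *Cfb*-/- mice (limma adjusted p of 0.0407) was lost in 10 alternatives.

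*Car2* (3:14886269-14900770) was at 151, 137, and 185 FPKM in WT control mice and at 194, 200.4, 181, and 206 FPKM in WT diabetic mice. Among *Cfb*-/- mice, controls had 156, 192, and 151 FPKM and diabetic mice 187, 179.6, 186, and 166 FPKM. The groups overlapped in both genotypes, in WT mice through control mouse 3. *Car2* rose in WT diabetic mice by 0.32 (SE 0.12; log2), close to the shift of the median gene, at a limma adjusted p of 0.0362. After median-ratio scaling the difference was 0.04 at a limma adjusted p of 0.817. The call was also lost when the 2 groups were fitted alone (0.0723) and without WT diabetic mouse 1, 2, or 4 (0.0632, 0.0723, and 0.0776) or WT control mouse 1 or 2 (0.0751 and 0.166), all adjusted p from limma. The *Cfb*-/- groups differed by 0.12 (SE 0.12), which turned to -0.13 after median-ratio scaling, and the adjusted p was 0.460 from limma.

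*Car4* (11:84957754-84966054) was at 104, 159, and 135 FPKM in WT control mice and at 51.4, 55.0, 46.3, and 49.7 FPKM in WT diabetic mice. Values in *Cfb*-/- mice were 105, 117, and 99.3 FPKM in controls and 26.4, 29.9, 48.1, and 45.9 FPKM in diabetic mice. Each diabetic mouse was below each control mouse in both genotypes, which held for 9.84% of all genes in WT and 8.64% in *Cfb*-/- mice. The mean ± SD went from 133 ± 27.4 FPKM (n = 3) to 50.6 ± 3.62 FPKM (n = 4) in WT and from 107 ± 9.05 FPKM (n = 3) to 37.6 ± 11.0 FPKM (n = 4) in *Cfb*-/- mice. *Car4* fell in WT mice by 1.37 (SE 0.19) on the log2 scale at a limma adjusted p of 9.94e-05. It fell in *Cfb*-/- mice by 1.55 (SE 0.19) on the log2 scale at a limma adjusted p of 4.50e-05. The exact permutation p was 0.0571 in each genotype, the smallest that 4 mice against 3 allow. Both calls were kept in all 22 alternatives, between -1.65 and -1.18 in WT and between -1.80 and -1.40 in *Cfb*-/- mice. Proximal tubule markers fell in the same mice, and their part in the *Car4* values was not tested. The ratio of *Car4* to *Car2* within a mouse was 0.609 to 1.16 in control and 0.141 to 0.277 in diabetic mice.

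Of 11 carbonic anhydrases, 4 rose and 3 fell in WT, and 2 rose and 3 fell in *Cfb*-/- mice. Besides *Car4*, those called in both were *Car3*, a cytosolic form known from muscle and fat (-1.42 and -2.41), *Car9*, a membrane-bound form induced by hypoxia (-1.65 and -0.77), and *Car13*, a cytosolic form (1.57 and 1.41). The WT split of the list was 3 higher and 4 lower after median-ratio scaling. *Car3* was at 20.4 to 31.2 FPKM in WT control and 8.65 to 10.6 FPKM in WT diabetic mice. With *Cfb* deleted it was at 16.3 to 30.8 FPKM in controls and 3.67 to 6.20 FPKM in diabetic mice, so the groups did not overlap in either genotype.

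*Slc4a4* (5:88793858-89239656) overlaps a pseudogene, *Mkrn1-ps1*, and a long noncoding RNA, *Gm35855*, and the use of strand in counting is not given in the sources used here. It was at 104, 57.0, and 84.5 FPKM in WT control mice and at 80.9, 93.3, 59.5, and 54.8 FPKM in WT diabetic mice. The *Cfb*-/- controls had 109, 80.7, and 92.6 FPKM, and diabetic mice 40.1, 41.9, 104, and 79.9 FPKM. *Cfb*-/- diabetic mice 1 and 2 were the lowest of all 14, and the other 2 lay within the range of the 6 control mice. The log2 difference was -0.17 (SE 0.31) in WT and -0.61 (SE 0.31) in *Cfb*-/- mice at limma adjusted p of 0.671 and 0.148. Without *Cfb*-/- diabetic mouse 3 the second was -0.86 at a limma adjusted p of 0.0295.

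*Slc9a3* (13:74086255-74169442) overlaps a long noncoding RNA, *Gm41003*. It was at 20.9, 9.89, and 13.8 FPKM in WT control mice and at 11.6, 18.2, 13.9, and 11.1 FPKM in WT diabetic mice. Among *Cfb*-/- mice, controls had 18.8, 14.2, and 19.4 FPKM and diabetic mice 9.29, 8.12, 17.2, and 14.8 FPKM. The same *Cfb*-/- diabetic mice 1 and 2 were again the lowest of all. The log2 difference was -0.08 (SE 0.28) in WT and -0.55 (SE 0.28) in *Cfb*-/- mice at limma adjusted p of 0.843 and 0.147. After median-ratio scaling the second was -0.79 at a limma adjusted p of 0.0409. Of the 11 SLC9 genes and scaffolds, 4 rose and 2 fell in each genotype, with *Slc9a8*, an exchanger of intracellular and apical membranes, at -1.46 and -1.81. Also called in both were the organellar exchangers *Slc9a7* (1.03 and 0.78) and *Slc9a9* (1.64 and 1.31) and *Slc9a3r1*, a scaffold that binds NHE3 (-0.55 and -0.37). After quantile normalization *Slc9a7* was at 0.26 and 0.098 and neither call was kept (limma adjusted p of 0.198 and 0.672), and without *Cfb*-/- control mouse 2 its *Cfb*-/- call was lost too (limma adjusted p of 0.0614). Without *Cfb*-/- control mouse 1 the *Cfb*-/- call of *Slc9a3r1* was lost (limma adjusted p of 0.0551). In WT mice the list split into 2 higher and 2 lower after quantile normalization. Median-ratio scaling gave 3 higher and 4 lower in *Cfb*-/- mice, and quantile normalization gave 3 of each.

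**Figure D3:**
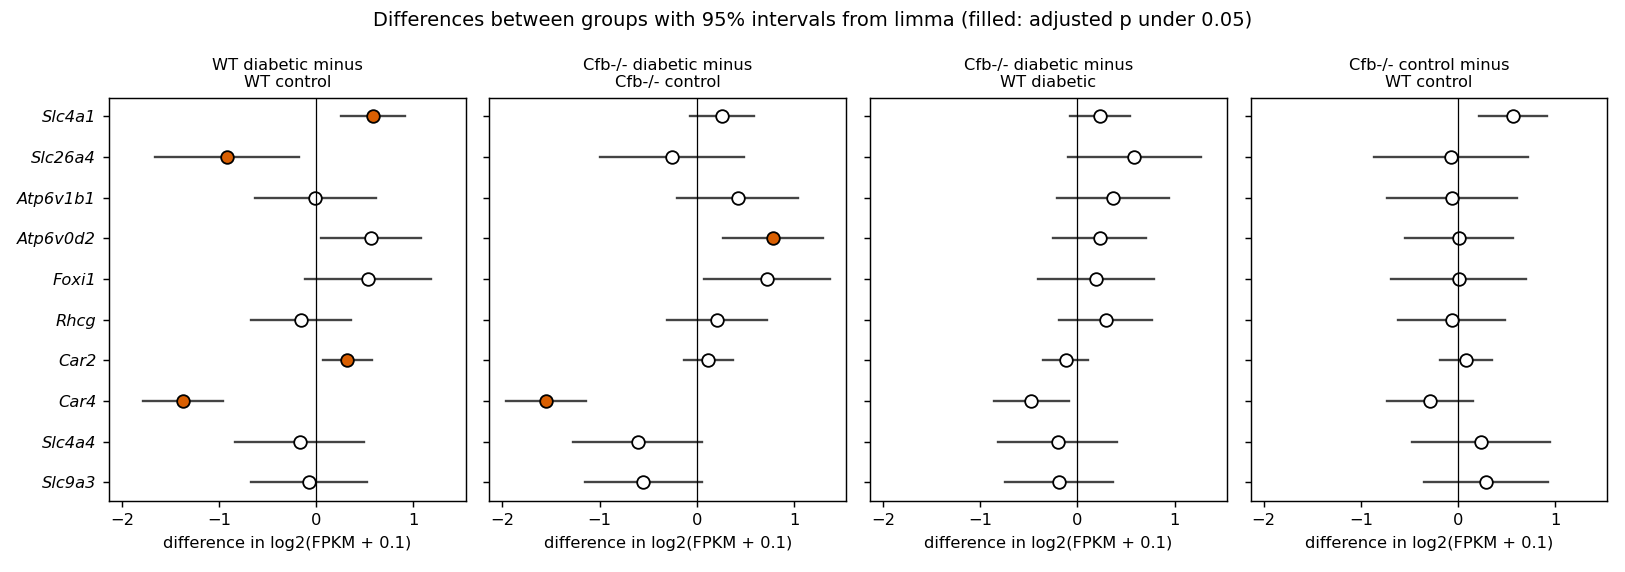
Difference in log2(FPKM + 0.1) of the 10 genes in 4 comparisons of groups, with 95% intervals from limma over 14 mice, and filled points for an adjusted p under 0.05. *Car4* was called in both comparisons of diabetic with control mice, and 0 genes were called between genotypes.

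The remaining lists of acid-base genes were counted in the same way. Beside them, 36.2% of all tested genes rose and 9.97% fell in WT, and 27.4% rose and 6.4% fell in *Cfb*-/- mice. Of 9 SLC4 bicarbonate transporters tested, 5 rose in WT and 2 in *Cfb*-/- mice, and 0 fell. Median-ratio scaling gave 3 and 0 such calls, and quantile normalization gave 4 and 1. Called in both were *Slc4a2*, the widespread exchanger AE2, at 0.47 and 0.46, and *Slc4a8*, a sodium-driven exchanger, at 1.25 and 0.60. After median-ratio scaling *Slc4a2* was at 0.19 and 0.21 and neither call was kept (limma adjusted p of 0.0829 and 0.0662). For *Slc4a8* the *Cfb*-/- call was lost in 15 alternatives, at 0.38 after median-ratio scaling (limma adjusted p of 0.136) and with a turn to -0.06 after quantile normalization. Of 7 SLC26 anion exchangers tested, 3 rose and 2 fell in WT, and 0 were called in *Cfb*-/- mice. The WT split was 1 higher and 2 lower after median-ratio scaling and 0 higher and 3 lower after quantile normalization, where the median of the list went from 0.26 to -0.53. Of 5 acid-sensing genes tested, 3 rose in both genotypes on the values as deposited, among them the proton-sensing receptors *Gpr4* (0.53 and 0.83) and *Gpr65* (1.90 and 2.10). *Gpr4* turned to -0.09 in WT after quantile normalization and was at 0.27 in *Cfb*-/- mice (limma adjusted p of 0.244). Its WT call was also lost after median-ratio scaling (0.27, limma adjusted p of 0.235), with the groups fitted alone (0.0557), and without WT diabetic mouse 1, 2, or 3 or WT control mouse 1 or 2 (limma adjusted p of 0.0551 to 0.127). *Ptk2b*, a kinase of this list, differed by -0.19 and -0.01, and *Insrr* is given above. *Gpr65* is also a gene of leukocytes, whose 4 markers rose in WT (4 of 4) and *Cfb*-/- diabetic mice (3 of 4), and their part in its rise was not tested.

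**Figure D4:**
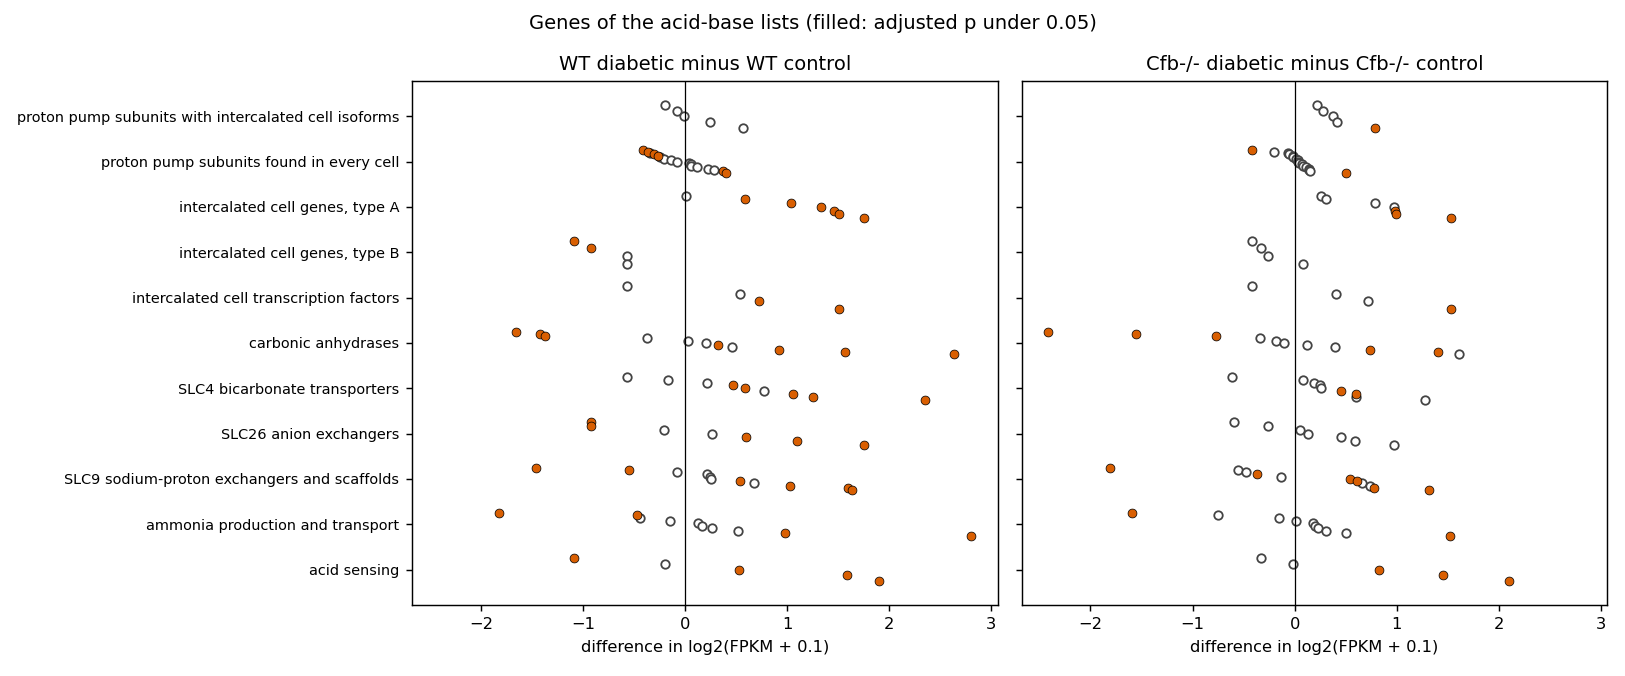
Difference in log2(FPKM + 0.1) between diabetic and control mice for each tested gene of 11 lists of acid-base genes, in WT mice on the left and *Cfb*-/- mice on the right, with filled points for an adjusted p under 0.05. Of the 7 type A genes, 6 were called in WT and 3 in *Cfb*-/- mice, all higher in diabetic mice. Of all tested genes, 36.2% were called higher in WT and 27.4% in *Cfb*-/- diabetic mice.

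Between genotypes, 0 of the 10 genes were called, in diabetic or in control mice. The background was 0.00671% in each comparison, which is *Cfb* alone among 14912 genes by limma, and 448 genes (3.0%) in diabetic and 2614 genes (17.5%) in control mice had an unadjusted p under 0.05. In diabetic mice the largest log2 difference was that of *Slc26a4*, at 0.59 (95% interval -0.10 to 1.27), and 3 of 4 *Cfb*-/- mice were above the WT mean. *Car4* was at -0.47 (95% interval -0.86 to -0.09) in diabetic mice, with 4 of 4 *Cfb*-/- mice below the WT mean, an exact permutation p of 0.0571, and a limma adjusted p of 1. The intervals of the other 8 included 0, and their differences lay between -0.20 for *Slc4a4* and 0.37 for *Atp6v1b1*.

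In control mice *Slc4a1* was higher in each *Cfb*-/- mouse than in each WT mouse, which held for 6.67% of all genes. Its log2 difference was 0.56 (95% interval 0.21 to 0.91) at a limma adjusted p of 0.243 and an exact permutation p of 0.1, the smallest that 3 mice against 3 allow. Without WT control mouse 1 the adjusted p from limma was 0.0421, and the number of genes called in this comparison rose from 1 to 1711. The other 9 members differed by between -0.29 for *Car4* and 0.29 for *Slc9a3*, and all 9 intervals included 0.

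The interaction of genotype with diabetes was called for 0 of 10 members and 0.0% of all genes by limma, with 861 genes, or 5.77%, at an unadjusted p under 0.05. It was largest for *Slc26a4*, at 0.66 (95% interval -0.38 to 1.71; log2), and for *Slc9a3*, at -0.48 (95% interval -1.33 to 0.37). *Slc4a1* had -0.33 (95% interval -0.79 to 0.14), and *Atp6v0d2* had 0.22 (95% interval -0.51 to 0.95). The calls of *Slc4a1*, *Slc26a4*, and *Car2* in WT alone and of *Atp6v0d2* in *Cfb*-/- mice alone are therefore not shown to differ between genotypes.

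Beyond the group means, several of the genes moved together from mouse to mouse. In *Cfb*-/- diabetic mice, mice 1 and 2 were the highest in *Foxi1*, *Atp6v1b1*, *Atp6v0d2*, *Slc26a4*, and *Rhcg* and the lowest in *Car4*, *Slc4a4*, and *Slc9a3*. In WT diabetic mice, mice 1 and 4 were the highest in the same 5 genes and the lowest in *Slc9a3*. Correlations were computed on deviations from the group mean over the 14 mice, for all 45 pairs of members, with exact permutation within groups and Benjamini-Hochberg adjustment over the 45 pairs. At an adjusted p under 0.05, 16 pairs passed, 14 positive and 2 negative, and 14 passed by rank. The share of pairs of other genes that would pass was not computed. The co-variation is therefore not shown to be particular to these genes.

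*Slc26a4* and *Atp6v1b1* had the highest r, 0.952 (permutation p = 0.00106, adjusted 0.0152), with a rho of 0.916 (permutation p = 0.00265, adjusted 0.0192). Without the 2 mice farthest from the median r was 0.948, and it was 0.951 in 8 diabetic and 0.996 in 6 control mice. The pairs among *Foxi1*, *Slc26a4*, *Atp6v1b1*, *Atp6v0d2*, and *Rhcg* all passed, with r from 0.790 for *Foxi1* with *Rhcg* to this value. *Slc26a4*, which fell in WT diabetic mice, thus varied within groups together with pump subunits that were not called there. *Car2* passed with *Slc26a4*, *Atp6v1b1*, and *Atp6v0d2*, at r of 0.559, 0.611, and 0.665 (adjusted permutation p of 0.0438, 0.0469, and 0.0305). By rank its pair with *Atp6v1b1* did not pass (adjusted permutation p of 0.0652). With *Foxi1* and *Rhcg* its r of 0.358 and 0.460 did not pass (adjusted permutation p of 0.244 and 0.103). For *Slc4a1* no such relation passed, with r of 0.144, 0.159, and 0.222 for *Foxi1*, *Slc26a4*, and *Atp6v1b1*, and permutation p of 0.618, 0.656, and 0.478. With *Rhcg* and *Atp6v0d2* its r was 0.349 and 0.338 (permutation p of 0.451 and 0.346), made of 0.720 and 0.664 in 8 diabetic and -0.639 and -0.255 in 6 control mice.

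*Slc4a4* and *Slc9a3* formed a second pair, with r = 0.888 (permutation p = 0.00357, adjusted 0.0181) and rho = 0.899 (permutation p = 0.00265, adjusted 0.0192), and r was 0.868 without the 2 farthest mice. *Rhcg* ran against *Slc9a3*, with r = -0.792 (permutation p = 0.0129, adjusted 0.0415) and rho = -0.798 (permutation p = 0.0149, adjusted 0.0477), and r = -0.743 without the 2 farthest mice. *Slc4a1* ran against *Car4*, with r = -0.782 (permutation p = 0.00251, adjusted 0.0161), although the rho of -0.710 did not pass (permutation p = 0.0243, adjusted 0.0684) and r was -0.566 without the 2 farthest mice. *Car4* with *Slc9a3* had r of 0.837 in 8 diabetic and -0.992 in 6 control mice, so its pooled r of 0.243 describes neither.

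**Figure D5:**
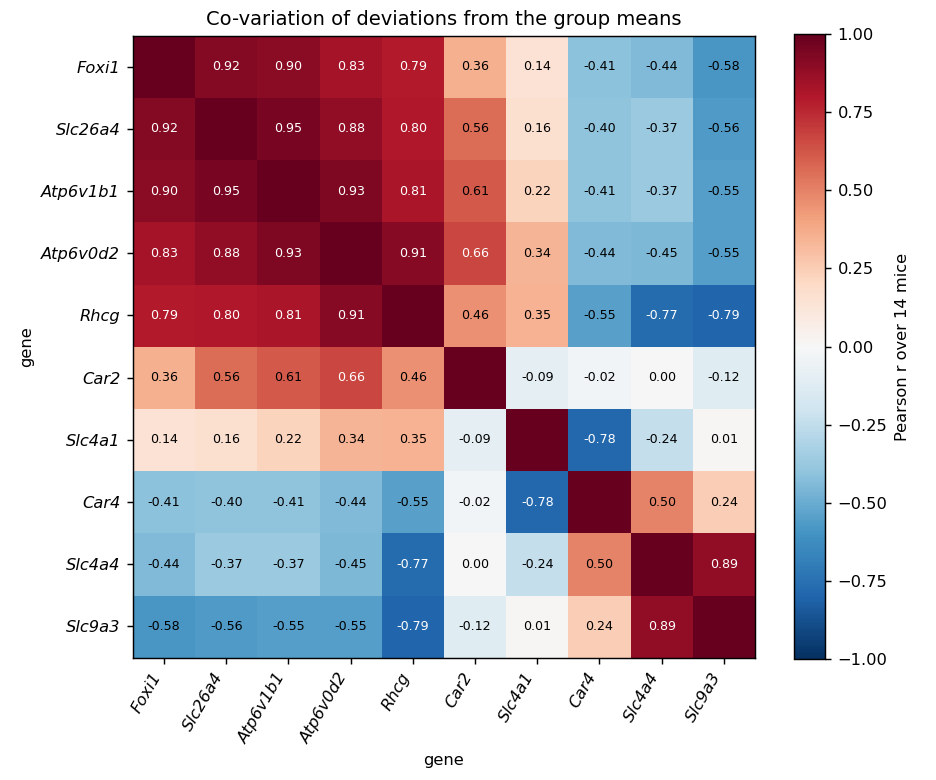
Pearson r between the 10 genes over 14 mice, computed on deviations of log2(FPKM + 0.1) from the group means, with red for positive and blue for negative values. *Foxi1*, *Slc26a4*, *Atp6v1b1*, *Atp6v0d2*, and *Rhcg* form a block with r from 0.790 to 0.952, and *Slc4a4* and *Slc9a3* a pair at 0.888.

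Markers of other tubule segments, of injured tubule, and of leukocytes are given beside this block. Summed distal convoluted tubule markers were at 608, 532, 419, and 308 FPKM in *Cfb*-/- diabetic mice 1 to 4 and at 449.6, 245, 213, and 534 FPKM in WT diabetic mice 1 to 4. The mice high in *Foxi1* were thus high in these markers in both groups. Principal cell markers summed to 526, 389, 279, and 354 FPKM in the *Cfb*-/- and to 290.3, 652, 443, and 406 FPKM in the WT diabetic mice. The largest part of this sum was *Aqp2*, at 129, 469, 292, and 194 FPKM in WT diabetic mice 1 to 4. *Scnn1b*, a sodium channel subunit, and *Hsd11b2* of the same list were highest in WT diabetic mice 1 and 4, as the block was. *Scnn1b* was at 18.5, 13.3, 10.6, and 21.3 FPKM and *Hsd11b2* at 72.7, 68.2, 62.1, and 106 FPKM. In WT diabetic mice the principal cell list as a whole did not follow the block. Its mean log2 level was 4.47, 4.98, 4.59, and 4.90 in mice 1 to 4 of that group, lowest in mouse 1. In *Cfb*-/- diabetic mice 1 to 4 it was 5.26, 4.86, 4.36, and 4.60, highest in mice 1 and 2, as the block was. The mean log2 level of proximal tubule markers was 6.34, 6.84, 7.54, and 7.27 in the *Cfb*-/- and 7.21, 7.44, 7.11, and 6.70 in the WT diabetic mice. For injured tubule markers it was 3.82, 3.69, 2.70, and 2.99 in the *Cfb*-/- and 3.40, 3.27, 3.04, and 3.66 in the WT diabetic mice. Leukocyte markers had 1.76, 1.85, 0.875, and 1.73 in the *Cfb*-/- and 2.01, 1.41, 1.78, and 2.03 in the WT diabetic mice. Both lists were thus highest in *Cfb*-/- mice 1 and 2 and WT mice 1 and 4, as the block was. The part of the sampled tissue, of injury, and of leukocytes in this co-variation was not tested.

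Genes with the most similar pattern over the 14 mice, group differences included, were sought among 11381 genes as a description. For *Slc26a4* they were *Insrr* (r = 0.974), *Klk1*, tissue kallikrein of the connecting tubule (0.930), and *Iffo1* (0.923). For *Rhcg* they were *Atp6v1c2* (0.931), *Rhbg*, its basolateral relative (0.916), and *Hsd11b2*, an enzyme of principal cells (0.905). *Foxi1* was closest to *Slc41a3*, *Fam214b*, and *Vsig10l* (0.945 to 0.942), and *Atp6v0d2* ranked at 31 for it with 0.902. Others of the block ranked lower for *Foxi1*, with *Atp6v1b1* at 209 (0.835), *Rhcg* at 2160 (0.646), and *Slc26a4* at 5730 (0.293). For *Atp6v0d2*, *Slc26a4* ranked at 7048 (0.162). *Atp6v1b1* was closest to *Tbck*, *Kcne1*, and *Exoc3l4* (0.948 to 0.935), and *Atp6v0d2* to *Hoxd8*, *Synpo*, and *Shisa4* (0.964 to 0.957). *Slc4a1* was closest to *Prdm16*, *Spire1*, and *Ipo13* (0.944 to 0.939) and *Car2* to *Gja5*, *Tspan7*, and *Morf4l2* (0.857 to 0.850). *Car4* was closest to *Pecr*, a peroxisomal reductase, *Tcn2*, transcobalamin, and *Shmt2*, a mitochondrial enzyme of serine metabolism (0.989 to 0.983). *Slc4a4* was closest to *Ugt1a7c*, *Lrrc19*, and *Ahcyl2* (0.958 to 0.949) and *Slc9a3* to *Tmem56*, *Dpyd*, and *Slc16a12* (0.966 to 0.958), and *Slc9a3* ranked at 20 for *Slc4a4* and *Slc4a4* at 40 for *Slc9a3*, with 0.911.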

How the data were processed

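Whole kidneys of 14 mice were profiled by stranded mRNA sequencing. The submitters' processing notes name Trimmomatic, HISAT2, Cufflinks, HTSeq, and DESeq, and the build GRCm38.p6, without versions. The deposited files hold 1 value per gene and mouse. Their headers name no unit, and they were read as FPKM, made by the authors, from their range and from the naming of Cufflinks. Such values hold no read counts, so depth is unknown and the count test of the study's methods was not run.

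Samples were grouped by title. FPKM were tested on the log2(FPKM + 0.1) scale, on which changes of low genes are understated, with limma 3.58.1 (trend; R 4.3.3) over all 14 mice with 1 mean per group, for genes at 0.1 FPKM or more in at least 3 mice. Adjusted p-values are Benjamini-Hochberg over 14912 genes, and p-values measure the spread between mice. Exact permutation tests were two-sided. Correlations between members, added after values had been seen, used the 20736 permutations possible within groups. Tables and figures used Python 3.11.15, pandas 2.3.3, numpy 2.4.6, scipy 1.17.1, and matplotlib 3.10.9, and the fit was tested on simulated data. The members, lists, and alternatives were chosen with earlier results of these data known. Named were the 10 members, the genes of each list called in both genotypes, every gene of lists of 5 or fewer, and the 3 genes with the highest Pearson r to each member among tested genes with a mean log2(FPKM + 0.1) of at least 0. Other named genes were chosen after their values were seen, and some genes under this rule are not reported here. The alternatives were other pseudocounts (1 and 0.01), other filters (1 FPKM, or none), median-ratio scaling, quantile normalization, the groups of a comparison fitted alone, a replicate block, and each mouse left out.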

Additional observations from a re-analysis of the deposited data

How the results depend on the processing

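Of the 10 members, 4 were called for diabetes in WT mice, against 2 under median-ratio scaling, 2 with the replicate block, 2 with the groups fitted alone, and 2 to 5 with 1 mouse left out. In *Cfb*-/- mice the count was 2, against 1 under quantile normalization and 1 to 3 with 1 mouse left out. For *Cfb* deletion in control mice it was 0, and 0 to 1 with 1 mouse left out. Why these counts moved was not tested.

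Some small differences turned sign. Under median-ratio scaling *Atp6v0a4* in WT became -0.032, and in *Cfb*-/- mice *Rhcg* became -0.040, *Car2* -0.13, *Atp6v0a4* -0.021, and *Slc4a9* -0.16. For deletion in control mice, *Atp6v0d2* became -0.083, *Foxi1* -0.084, and *Car2* -0.0086. Under quantile normalization *Atp6v1b1* in WT became 0.024 and *Gpr4* -0.088, and in *Cfb*-/- mice *Slc4a9* became -0.031, *Slc4a8* -0.056, and *Atp6v1c2* -0.084. For deletion in control mice, *Atp6v0d2* became -0.062, *Foxi1* -0.057, and *Rhcg* 0.0037. With the replicate block *Atp6v1b1* in WT became 0.00093.

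With 1 mouse left out, differences that turned sign ranged as follows. In WT, *Atp6v1b1* ranged from -0.18 to 0.22, *Atp6v1c2* from -0.26 to 0.072, *Slc9a3* from -0.33 to 0.20, and *Slc4a4* from -0.41 to 0.022. In *Cfb*-/- mice *Slc4a9* ranged from -0.15 to 0.36. For deletion in diabetic mice *Foxi1* ranged from -0.018 to 0.43, and its interaction from -0.024 to 0.43. For deletion in control mice *Atp6v0d2* ranged from -0.12 to 0.19, *Foxi1* from -0.16 to 0.20, *Car2* from -0.026 to 0.20, *Slc26a4* from -0.24 to 0.13, *Atp6v1b1* from -0.23 to 0.17, *Rhcg* from -0.17 to 0.043, and *Slc4a4* from -0.0051 to 0.43.

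Over all genes, 6879 were called for diabetes in WT mice, against 6278 with the replicate block and between 4775 without WT control mouse 2 and 7503 without WT control mouse 1. In *Cfb*-/- mice 5038 were called, 4463 with the block and 3717 to 5568 with 1 mouse left out. For deletion in control mice the count was 1, and 1711 without WT control mouse 1. Mice with the same replicate number did not deviate together, since 3 of 19 such pairs had r over 0.1 and 0 of 14 mice correlated best with their own number. With the block, the limma adjusted p was 0.0723 for *Slc26a4* and 0.0703 for *Car2* in WT mice. Read depth is unknown and 3 mice per control group bound the precision.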

Other observations

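Principal cells, the neighbours of intercalated cells in the collecting duct, showed 2 of 7 marker genes higher in WT diabetic than in WT control mice, the water channel *Aqp2* by 1.14 and the vasopressin receptor *Avpr2* by 0.71 on the log2 scale, and 0 of 7 called in *Cfb*-/- mice. The share of all genes that rose in WT mice was 36.2%. After median-ratio scaling 0 of the 7 were higher and 1 lower in WT mice, and after quantile normalization 1 was higher. Their summed level was 262 to 333 FPKM in WT control and 290.3 to 652 FPKM in WT diabetic mice, which overlapped. *Pck1*, the gluconeogenic enzyme that acidosis is known to raise, differed by 0.52 in WT and -0.75 in *Cfb*-/- mice and ranged from 153 to 715 FPKM over all mice. No gene was called for the interaction of genotype with diabetes, so these opposite signs are not shown to differ between genotypes.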
